A study of Mus musculus with 18 samples.

Results

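The genes described here are 10 transcripts of the cell-cell junctions of epithelium, chosen by name from 52636 gene identifiers in each library: the classical cadherins Cdh1 and Cdh3, the desmosomal cadherins Dsg2, Dsg3, Dsc2 and Dsc3, the desmosomal plaque genes Dsp, Pkp1 and Jup, and Perp. All 10 passed the filter on low counts, as did 16497 genes in all. RNA was sequenced from sorted mammary gland cells of 6 nulliparous mice of genotype MMTV-Cre, 12 weeks old and untreated, a line in which a mammary tumour virus promoter drives Cre recombinase and which all libraries share. The 3 sorted populations were basal cells (CD49f high, CD61 positive), AP (alveolar progenitors, CD49f low, CD61 positive) and HSL (hormone-sensing luminal cells, CD49f low, CD61 negative), with 6 libraries of each, numbered as samples 1 to 6. No group of another genotype or treatment is compared here.

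Classical cadherins join neighbouring cells at adherens junctions, where their cytoplasmic tails bind catenins that link them to actin. Desmosomes are built from 2 families of related cadherins, the desmogleins and desmocollins, whose tails bind plakoglobin (Jup) and plakophilins, and these bind desmoplakin (Dsp), which anchors keratin filaments. Both junctions hold together the luminal and basal layers of the mammary ducts, and P-cadherin (Cdh3) is a known marker of the basal, myoepithelial layer. Perp is a tetraspan membrane protein of desmosomes and a known target of the transcription factor p63.

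Total counts were 29899462 to 91095830 per basal library, 37391691 to 62505465 per AP library and 26516293 to 52404937 per HSL library. The labels were checked against marker genes: the summed level of 6 basal markers was 22278 to 37867 scaled CPM (the count divided by the effective library size) in basal libraries, against 87.6 to 274 in AP and 30.6 to 157 in HSL. Of 6 AP markers, 5 were detected and Csn3, whose span lies wholly within another gene, was listed at 0 in all libraries. The AP marker sum was 2209 to 5892 CPM in AP and at most 549 elsewhere, and that of 6 HSL markers was 2842 to 6915 CPM in HSL and at most 1673 elsewhere. The 3 libraries of sample 1 stood apart from the others on the third principal component of all genes, which held 7.82% of the variance, so values without sample 1 are given where they differ. In bulk libraries such as these, fewer cells that express a gene and less RNA per cell cannot be told apart.

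Luminal cells carried more Cdh1 and almost no Cdh3, Dsg3 or Dsc3, apart from Dsc3 and Dsg3 in the HSL library of sample 4 (55.5% and 19.4% of the basal mean), and less Perp, Pkp1 and Dsp than basal cells. Of the desmosomal genes, HSL had more Dsc2, Dsp and Perp and less Pkp1 than AP, while Dsg2, Dsg3, Dsc3 and Jup were not told apart. In the edgeR quasi-likelihood test at an adjusted p under 0.05, 2 of the 10 genes were higher in AP than in basal cells (Cdh1 and Jup), 6 were lower and 2 were not called, whereas the shares among all genes tested were 21.5% higher and 23.1% lower. Libraries of AP and basal cells did not overlap for 6 of the 10 genes, against 25.8% of all genes. In HSL against basal cells, 2 genes were higher (Cdh1 and Dsc2), 6 were lower and 2 were not called, against 27.8% higher and 30.6% lower among all genes, and 6 of 10 did not overlap, against 36.9% of all genes. In HSL against AP, 3 were higher and 1 lower, against 19.8% and 20.1% of all genes. Only Pkp1 of the 10 did not overlap between HSL and AP, against 20.6% of all genes. The median log2 fold change of the 10 was -1.31 for AP and -1.40 for HSL relative to basal cells, and 0.77 for HSL relative to AP, beside medians over all genes of -0.001, -0.063 and -0.011. AP and HSL were compared with the same basal libraries, so these counts are not independent of each other. Dsg3 and Dsc3, which are among the 6 lower genes in both comparisons with basal cells, passed the filter mainly through basal libraries. They could hardly be called higher in luminal cells, so the counts and medians against basal cells are a description of the 10 genes.

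**Figure D1:**
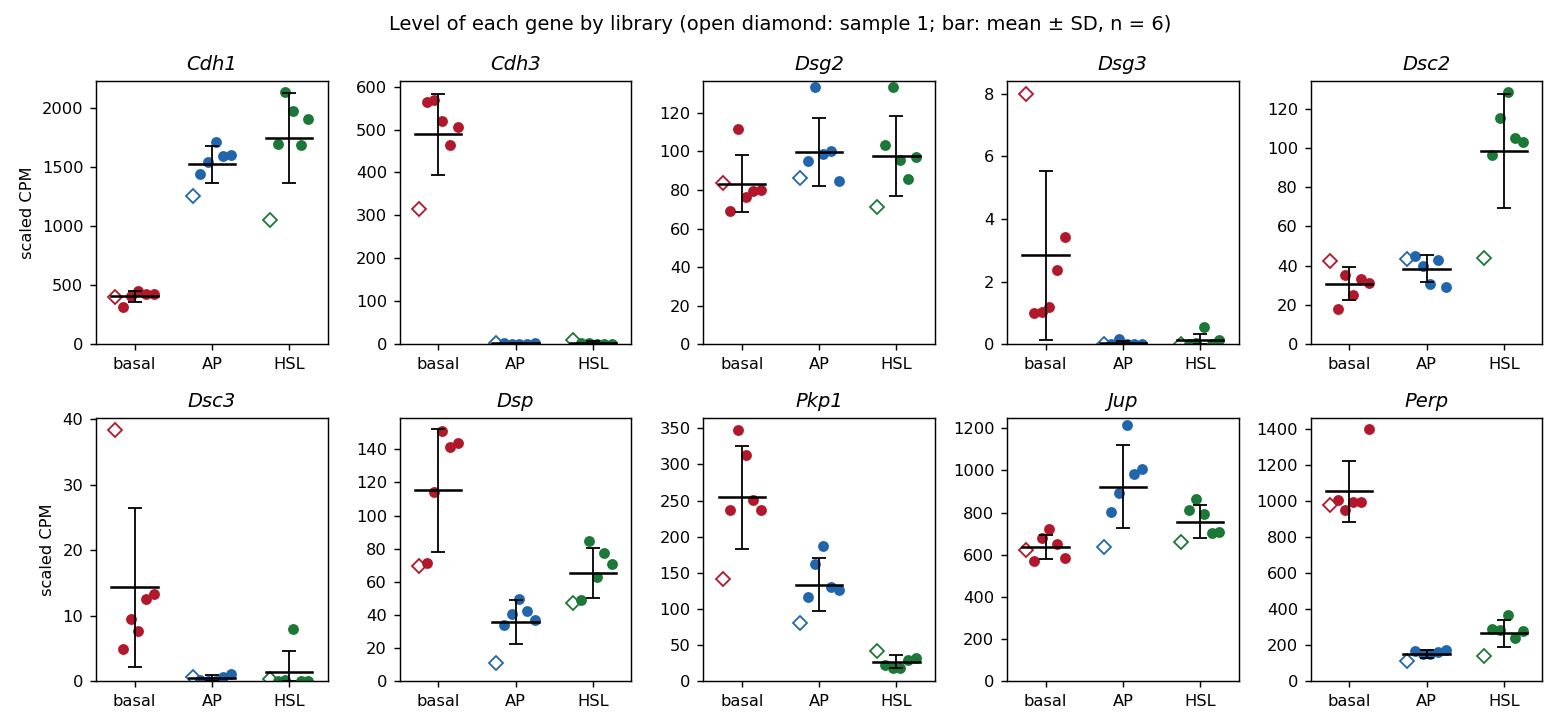
Level of each of the 10 genes (vertical axis, scaled CPM, linear, a different scale in each panel) in the 6 libraries of each population. Points are libraries (red basal, blue AP, green HSL), open diamonds are those of sample 1, and black bars give mean and SD (cut at 0). The basal and luminal points do not overlap for Cdh1, Cdh3, Dsg3 and Perp, and the HSL points of Pkp1 lie below all others.

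**Figure D2:**
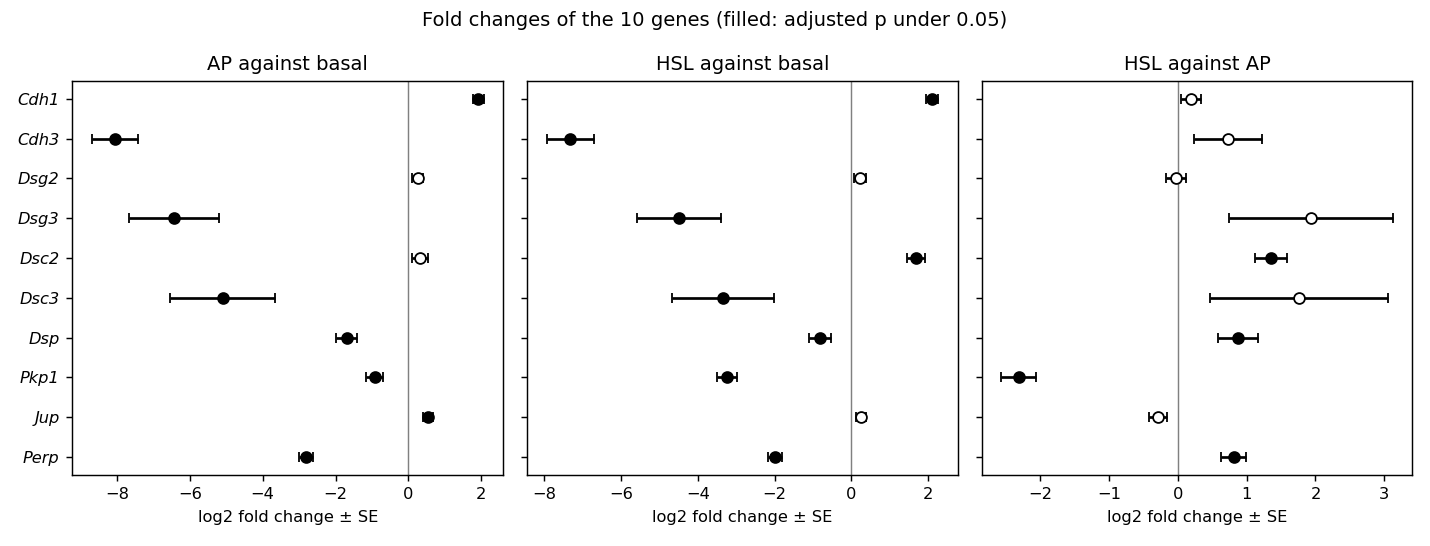
Log2 fold change with its standard error for each gene in the 3 comparisons (horizontal axis, a different range in the panel of HSL against AP). Filled points passed an adjusted p under 0.05 in the edgeR quasi-likelihood test, and the widest error bars belong to Dsg3 and Dsc3, which have few counts in luminal libraries.

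Cdh1 encodes E-cadherin, the main classical cadherin of epithelia, and lies on chromosome 8 at 106603351 to 106670246 on the plus strand (GRCm38). In basal libraries its level was 316 CPM at the lowest, 415 at the median and 453 at the highest. In AP it was 1252, 1567 and 1705 CPM, and in HSL 1050, 1800 and 2133 CPM. Every luminal library was above every basal library, while AP and HSL overlapped. Cdh1 was higher in AP than in basal cells by 1.91 ± 0.15 on the log2 scale (SE, adjusted p = 1.06e-08 in edgeR's quasi-likelihood test), a 3.77-fold difference, and in HSL by 2.11 ± 0.15 (adjusted p = 2.14e-09 in edgeR). HSL and AP were not told apart (0.19 ± 0.15, adjusted p = 0.314 in edgeR), although HSL was higher in 5 of 6 samples. The exception was sample 1, whose HSL library had 1050 CPM where the other 5 ranged from 1683 to 2133.

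Cdh3 encodes P-cadherin and lies next to Cdh1 on chromosome 8, at 106510891 to 106557297 on the same strand, 46053 bases upstream. The only protein-coding model between them, Gm10073, reached at most 0.511 CPM. Cdh3 in samples 1 to 6 was at 314, 563, 569, 520, 464 and 506 CPM in basal libraries. In AP it was at 2.55, 2.77, 1.56, 0.631, 1.06 and 2.48 CPM, and in HSL at 9.89, 2.32, 2.25, 0.946, 1.32 and 1.19 CPM. Basal and luminal libraries were separated by a wide gap: the highest luminal library stood at 9.89 CPM and the lowest basal library at 314 CPM. The log2 fold change was -8.06 ± 0.63 in AP against basal (adjusted p = 9.94e-09, edgeR) and -7.33 ± 0.61 in HSL against basal (adjusted p = 1.29e-08, edgeR). Between HSL and AP it was 0.73 ± 0.49 (adjusted p = 0.256, edgeR), and without sample 1 it was -0.09.

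The luminal remainder of Cdh3 was small and was of the order of that of other basal genes. As a percentage of its basal mean, Cdh3 averaged 0.376% in AP and 0.610% in HSL, or 0.328% in HSL without sample 1. The corresponding values of the basal keratin Krt14 were 0.290% and 0.136%, those of Krt5 0.289% and 0.217%, and those of the smooth muscle actin gene Acta2 0.322% and 0.156%. Trp63, which encodes p63, was at 0.674% and 1.04% of its basal mean. In the HSL library of sample 1, where Cdh3 was at 2.02% of the basal mean, Krt14 was at 0.268%, Krt5 at 0.474%, Acta2 at 0.360% and Mylk at 0.419%, the highest of the 6 HSL libraries for each of these 5 genes and for Oxtr (2.66%). Trp63 did not follow: it was at 0.747% there, below its HSL median of 0.792%, and at 2.63% in the highest HSL library. The summed level of the 6 basal markers was also highest in that library, at 157 CPM. The part of these markers in the luminal Cdh3 level was not tested.

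Per kilobase of exon, Cdh3 made up between 45.2% and 65.0% of the sum of Cdh1 and Cdh3 in basal libraries, with a median of 55.1%. It made up 0.0386% to 0.212% of the sum in AP and 0.05% to 0.973% in HSL. The sum itself was 159 to 219 CPM per kilobase in basal libraries, 274 to 373 in AP and 232 to 467 in HSL. Basal cells thus carried the 2 transcripts at similar levels, and luminal cells carried Cdh1 at a total that was above every basal library.

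**Figure D3:**
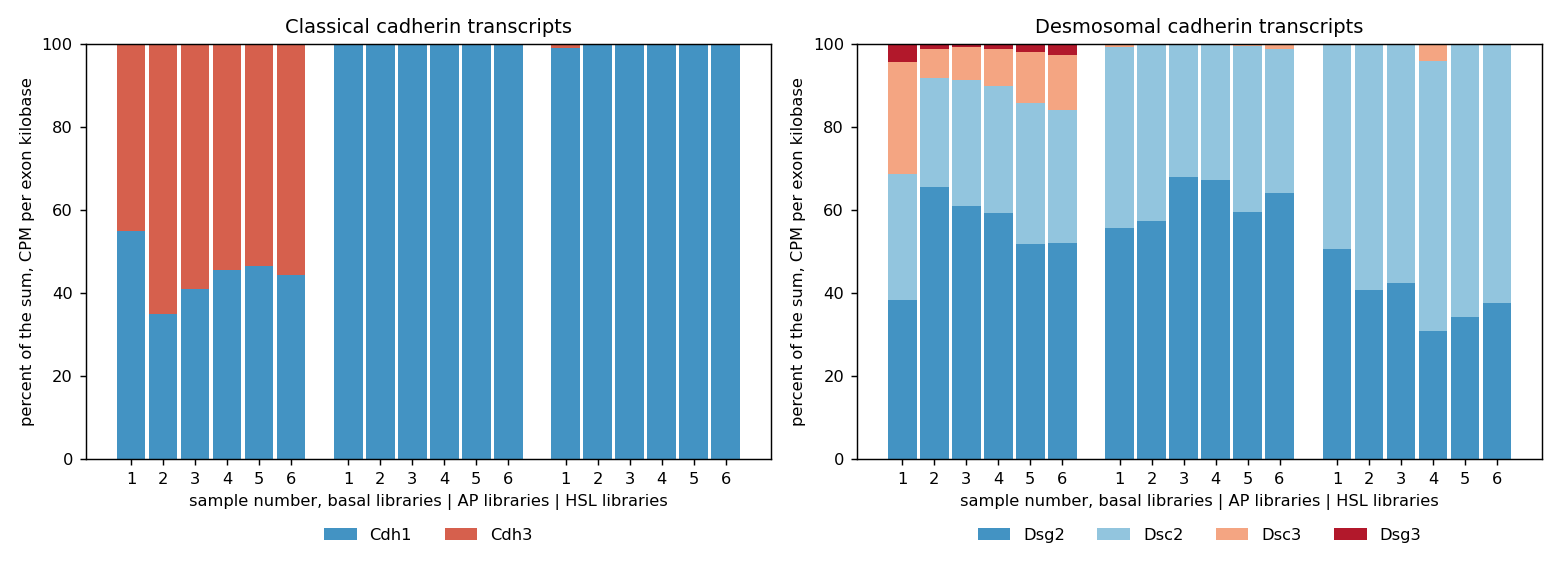
Percent of the summed level per exon kilobase in each library, for Cdh1 and Cdh3 (left) and for the 4 desmosomal cadherins (right). The horizontal axis gives the sample number within basal, AP and HSL libraries. Cdh3 is visible in the basal bars, from 45.2% to 65.0%, and Dsc2 takes the largest share in 5 of the 6 HSL bars.

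The 4 desmosomal cadherin genes lie in 1 cluster on chromosome 18 in the order Dsc3, Dsc2, Dsg3, Dsg2, with the desmocollins on the minus strand and the desmogleins on the plus strand. Dsc3 (19960930 to 20002351) and Dsc2 (20030633 to 20059554) are 28281 bases apart, and Dsg3 (20510274 to 20547459) and Dsg2 (20558074 to 20604521) are 10614 bases apart. Between the pairs lie Dsc1, Dsg1c, Dsg1a, Dsg1b and Dsg4. Neighbours in this cluster differed in their pattern: Dsg2 and Dsc2 were present in all libraries, whereas Dsg3 and Dsc3 were mainly in basal cells.

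Dsg2 encodes desmoglein 2, the desmoglein found in simple as well as stratified epithelia. It was at 69.4, 79.6 and 111 CPM (lowest, median and highest) in basal libraries, 84.4, 97.0 and 133 in AP and 71.1, 96.3 and 133 in HSL. The 3 populations overlapped, and sample 3 had the highest level in each of them. Dsg2 was not called in any comparison: 0.26 ± 0.15 in AP against basal (adjusted p = 0.173, edgeR), 0.23 ± 0.15 in HSL against basal (adjusted p = 0.201, edgeR) and -0.03 ± 0.15 in HSL against AP (adjusted p = 0.893, edgeR). Within samples the luminal library was higher in 6 of 6 samples for AP and in 5 of 6 for HSL. With the sample number as a block, Dsg2 was called in both, at 0.25 (adjusted p = 0.0276, edgeR) and 0.22 (adjusted p = 0.0442, edgeR), in a fit that called 26.7% of all genes higher in AP and 31.8% higher in HSL than in basal cells. Of the span of Dsg2, 14.1% is shared with Gm16090, which reached at most 0.600 CPM.

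Dsc2 encodes desmocollin 2, the widely expressed desmocollin, and was the desmosomal cadherin that set HSL apart. It was at 17.8, 32.2 and 42.2 CPM (lowest, median and highest) in basal libraries and at 28.9, 41.5 and 45.1 in AP. In HSL it was at 43.8, 96.3, 115, 129, 105 and 103 CPM in samples 1 to 6. All HSL libraries were above all basal libraries, and all but that of sample 1 were above all AP libraries. Dsc2 was higher in HSL than in basal cells by 1.68 ± 0.23 on the log2 scale (adjusted p = 5.93e-06, edgeR) and higher than in AP by 1.36 ± 0.23 (adjusted p = 0.000141, edgeR), in 6 of 6 samples each. AP and basal cells were not told apart (0.32 ± 0.23, adjusted p = 0.265, edgeR).

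Dsg3 encodes desmoglein 3, the main desmoglein of the basal layers of stratified epithelia. Its basal level was 8.0, 0.984, 1.03, 1.19, 2.38 and 3.42 CPM in samples 1 to 6. In AP it was detected in 2 libraries, with 1 count in sample 2 and 8 counts in sample 3. In HSL it had 1, 0, 1, 25, 0 and 3 counts. Every basal library was above every luminal one, and the basal library of sample 1 had the highest level. The log2 fold change was -6.43 ± 1.24 in AP against basal (adjusted p = 0.000327, edgeR) and -4.50 ± 1.10 in HSL against basal (adjusted p = 0.00177, edgeR). With so few luminal counts the size of these fold changes depends on the prior count of the fit. A count of 0 allows up to 3 counts, or 0.0474 to 0.0942 CPM in the libraries at 0, counting error only.

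Dsc3 encodes desmocollin 3, the desmocollin of the same layers. It was at 38.3, 4.94, 9.48, 7.57, 12.5 and 13.3 CPM in basal libraries. In AP it was at 0.652, 0.134, 0.021, 0, 0.610 and 1.12 CPM, and in HSL at 0.300, 0, 0.0844, 7.97, 0 and 0 CPM. AP lay wholly below basal cells, but the HSL library of sample 4 lay within the basal range. The log2 fold change was -5.10 ± 1.45 in AP against basal (adjusted p = 0.00762, edgeR) and -3.34 ± 1.32 in HSL against basal (adjusted p = 0.0373, edgeR). The HSL call was not held when any 1 of samples 1, 2, 3, 5 or 6 was left out, with adjusted p between 0.0664 and 0.114 in edgeR, while without sample 4 the fold change was -7.39. The call in AP was not held in samples 4 to 6 alone (-4.28, adjusted p = 0.083, edgeR). Neither Dsg3 nor Dsc3 was called between HSL and AP (1.93 ± 1.19 and 1.76 ± 1.29, adjusted p = 0.211 and 0.299 in edgeR). For that comparison Dsc3 was at -2.43 and Dsg3 at -0.36 without sample 4, so both changed sign without that sample, and Dsg3 was called without sample 3 (4.44, adjusted p = 0.0262, edgeR).

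The HSL library of sample 4 also held other genes of the chromosome 18 cluster that were rare or at 0 in most other libraries. Dsg1a, a desmoglein of differentiated epidermis, had 100 counts there (2.20 CPM), 3 counts in the other HSL libraries together and none in basal or AP libraries. Dsg4, a desmoglein of hair and upper epidermis, had 16 counts there and none in any other library. Dsg1b had 20 counts there and 7 in the other HSL libraries, and Dsc1 had 35 counts there and 4 in the others, while basal libraries held 183 counts of Dsc1. Dsg1c, with 36 counts there, had 50 in the other HSL libraries. Dsg1a, Dsg1b and Dsg1c are close copies, so reads may be split among them. Dsc2 was also highest in this library, at 129 CPM, while Dsg2, at 95.6 CPM, lay among the other HSL libraries. Of 10 markers of epidermal keratinocytes, 3 averaged over 1 CPM in HSL, and their sum was 58.8 CPM in sample 4 and 5.90 CPM at the lowest (55.8 in sample 4 without Dsg1a and Dsc1, which are among the 10). Most of that sum was the cornified envelope gene Ivl, at 51.0 CPM in sample 4 and 33.1 CPM in sample 2, where Dsc3 had no count. The keratins of differentiated epidermis were not raised in sample 4, with Krt10 at 2.53 CPM against 3.18 to 5.20 in the other HSL libraries and Krt1 at 1.08 against 1.19 to 2.03. Krtdap and Flg2 were at 0 in all HSL libraries. The keratins of basal layers were higher in sample 4 than in every HSL library but that of sample 1: Krt5 was at 14.3 CPM in sample 4, 14.8 in sample 1 and 1.28 to 4.53 in the others. Krt17 was at 19.2, 22.4 and 3.14 to 6.42 CPM, and Krt14 at 11.9, 19.2 and 4.02 to 9.15 CPM. Trp63 was at 8.83 CPM in sample 4 and at 11.7 CPM in sample 2, where it was highest. The contractile basal markers went the other way. Acta2 and Oxtr were at 0.0575% and 0.360% of their basal means in sample 4, the lowest of the HSL libraries. Mylk was at 0.167%, below its HSL median of 0.183%. The summed level of the 6 basal markers was 53.9 CPM in sample 4, beside an HSL median of 56.9 CPM. The part of these transcripts in the Dsc3 level of sample 4 was not tested.

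Taken per kilobase of exon, the 4 desmosomal cadherins summed to 12.8 to 26.4 CPM per kilobase in basal libraries, 15.9 to 23.7 in AP and 17.0 to 37.9 in HSL. The overlap of HSL with the others came from sample 1 alone: without it the sum was 30.2 to 37.9 in HSL, above all basal (12.8 to 22.1) and AP (15.9 to 23.7) libraries. Their make-up differed too. Dsg2 had a median share of 55.7% in basal cells, 61.9% in AP and 39.1% in HSL. Dsc2 had a median share of 30.4%, 37.2% and 60.9%. The ratio of Dsg2 to Dsc2 was 1.27 to 2.49 in basal libraries, 1.27 to 2.12 in AP and 0.475 to 1.04 in HSL, so that all HSL libraries were below all others. Dsc3 added a median of 10.7% and Dsg3 1.47% in basal libraries, and Dsc3 reached 26.9% in the basal library of sample 1. In AP and HSL the median share of Dsc3 was 0.339% and 0.0206%. These ratios are descriptions of the libraries and were not tested.

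Dsp encodes desmoplakin, the plakin that ties the desmosomal plaque to keratin filaments, at 38151294 to 38198577 on the plus strand of chromosome 13. Its promoter window is shown with that of the plaque gene Jup on chromosome 11. Among the genes described here, only Dsp and Jup had a promoter sequence available. Snai2 and Trp63, whose protein families recognise motifs that were searched, were at most 1.25% and 2.63% of their basal mean in luminal libraries. Whether either factor acts on Dsp or Jup was not tested. The windows run from 250 bases before to 50 after the RefSeq start (GRCm38.p6, chr13:38151044-38151343 on the plus strand and chr11:100397741-100398040 on the minus strand), written 5′ to 3′. Capitals in Dsp mark the E-box of Snail and Zeb factors (CAGGTG or CACCTG on either strand), at base 4 after the start, and a p63 half-site, at base 190 before it. No motif was found in the Jup window, and ACCGGTT or its reverse complement AACCGGT, the grainyhead-like motif, was in neither. No searched motifs overlap in these windows.
Dsp: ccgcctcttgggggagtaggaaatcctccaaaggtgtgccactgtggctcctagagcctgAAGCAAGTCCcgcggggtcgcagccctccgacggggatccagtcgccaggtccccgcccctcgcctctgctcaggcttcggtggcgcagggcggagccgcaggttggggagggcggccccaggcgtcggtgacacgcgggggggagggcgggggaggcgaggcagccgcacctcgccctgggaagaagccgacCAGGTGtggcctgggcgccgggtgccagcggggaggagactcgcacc
Jup: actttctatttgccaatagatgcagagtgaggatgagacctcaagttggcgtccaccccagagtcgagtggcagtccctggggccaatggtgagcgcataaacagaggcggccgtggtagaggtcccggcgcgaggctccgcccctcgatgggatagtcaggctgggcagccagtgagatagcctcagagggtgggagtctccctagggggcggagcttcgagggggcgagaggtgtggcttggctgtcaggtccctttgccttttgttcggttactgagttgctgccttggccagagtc
An E-box of this kind was in 20.2% of 32851 promoter windows of the same length, the p63 half-site in 8.36% and the grainyhead-like motif in 1.02%. The GC content was 73% for Dsp and 60.7% for Jup. A match of letters is a description of the window and not evidence of binding.

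The level of Dsp was 69.2, 71.4, 114, 151, 141 and 144 CPM in basal libraries of samples 1 to 6. In AP it was 10.9, 33.8, 40.7, 49.4, 42.0 and 36.8 CPM, and in HSL 47.1, 49.2, 84.4, 62.9, 77.5 and 70.6 CPM. The order of basal, HSL and AP, from high to low, was the same in all 6 samples, although HSL overlapped both other populations. The log2 fold change was -1.69 ± 0.29 in AP against basal (adjusted p = 0.000115, edgeR), -0.82 ± 0.29 in HSL against basal (adjusted p = 0.0204, edgeR) and 0.87 ± 0.29 in HSL against AP (adjusted p = 0.0213, edgeR). The call in HSL against basal was not held without sample 4, 5 or 6 (adjusted p = 0.0757, 0.0555 and 0.0581 in edgeR), and that in HSL against AP not without sample 3, 5 or 6 (adjusted p = 0.0988, 0.0589 and 0.0956 in edgeR). Of 50-base stretches of Dsp exons, 4.66% also occur in Gm10129, which had at most 0.189 CPM.

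Pkp1 encodes plakophilin 1, which strengthens desmosomes by clustering desmoplakin and cadherins, and lies on chromosome 1 at 135871395 to 135919207 on the minus strand. It was at 141, 244 and 348 CPM (lowest, median and highest) in basal libraries, 80.0, 128 and 187 in AP and 18.2, 25.7 and 41.9 in HSL. All HSL libraries were below all others, and AP was below basal in 6 of 6 samples with overlapping ranges. Pkp1 was lower in HSL than in basal cells, with a log2 fold change of -3.24 ± 0.26 (adjusted p = 8.52e-09, edgeR), and lower than in AP with -2.31 ± 0.25 (adjusted p = 1.73e-06, edgeR). In AP against basal cells it was -0.93 ± 0.24 (adjusted p = 0.00418, edgeR), and that call was not held in samples 1 to 3 alone (-0.99, adjusted p = 0.154, edgeR).

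Jup encodes plakoglobin, the catenin shared by both junctions, at 100368958 to 100397763 on chromosome 11. It was at 569, 636 and 721 CPM (lowest, median and highest) in basal libraries, 634, 939 and 1218 in AP and 660, 750 and 864 in HSL. The ranges overlapped, but AP and HSL were each above basal in 6 of 6 samples. Jup was higher in AP than in basal cells by 0.53 ± 0.13 (adjusted p = 0.00311, edgeR), a call not held in samples 1 to 3 alone (0.36, adjusted p = 0.252, edgeR). It was not called in HSL against basal (0.25 ± 0.13, adjusted p = 0.121, edgeR) or in HSL against AP (-0.29 ± 0.13, adjusted p = 0.0973, edgeR). Without sample 1 the latter was -0.36 and was called (adjusted p = 0.0159, edgeR).

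Perp lies on chromosome 10 at 18845020 to 18857073. Its basal level was 980, 1006, 949, 995, 996 and 1400 CPM in samples 1 to 6. In AP it was 111, 155 and 171 CPM (lowest, median and highest) and in HSL 138, 279 and 368. Basal libraries were above all luminal ones, and HSL was above AP in 6 of 6 samples with overlapping ranges. The log2 fold change was -2.80 ± 0.19 in AP against basal (adjusted p = 1.78e-09, edgeR), -1.99 ± 0.19 in HSL against basal (adjusted p = 5.14e-08, edgeR) and 0.81 ± 0.18 in HSL against AP (adjusted p = 0.00159, edgeR). The call in HSL against AP was not held in samples 1 to 3 alone. In luminal cells Perp was at 14.4% of its basal mean in AP and 25.2% in HSL, where Cdh3 was at 0.376% and 0.610%.

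Ratios among the plaque genes restate these levels within each library. The ratio of Pkp1 to Dsp per kilobase had a median of 3.95 in basal libraries, 6.96 in AP and 0.790 in HSL, and the HSL range of 0.414 to 1.71 lay below both others. The ratio of Jup to Dsp had a median of 8.04 in basal libraries, 36.3 in AP and 17.1 in HSL. AP had the highest values, from 33.0 to 87.3, against at most 24.8 in HSL. The ratio of Dsp to the sum of the desmosomal cadherins was 0.683 at the median in basal libraries, 0.196 in AP and 0.232 in HSL. None of these ratios was tested.

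Sample 1 was low for several of these genes in more than 1 population. Its basal library had 0.604 times the median of the other 5 for Cdh3, 0.490 times for Dsp and 0.565 times for Pkp1. Its AP library had 0.268 times that median for Dsp, 0.618 times for Pkp1 and 0.645 times for Jup. Its HSL library had 0.551 times for Cdh1, 0.417 times for Dsc2 and 0.489 times for Perp, but 1.91 times for Pkp1. In the opposite direction, basal Dsg3 and Dsc3 were 6.71 and 4.04 times the median of the other basal libraries. Without sample 1, the test called 2 genes higher and 6 lower in AP against basal, where 25.1% and 25.7% of all genes were called. It called 2 higher and 5 lower in HSL against basal (30.3% and 34.4% of all genes), and 3 higher and 2 lower in HSL against AP (23.3% and 24.7% of all genes).

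Ordered by level per exon kilobase, the 10 genes ranked differently in each population. In basal cells Perp was highest, at a mean of 540 CPM per kilobase, above all other genes in every library. Cdh3 (112), Jup (99.0) and Cdh1 (88.2) followed and could not be ordered beyond their spread, then Pkp1 (50.6), Dsp (11.9) with Dsg2 (10.1), and Dsc2 (5.83), Dsc3 (2.66) and Dsg3 (0.406). In AP Cdh1 (332) was above Jup (143), Perp (77.6) and Pkp1 (26.6), with no overlap between neighbours down to Perp and Pkp1. Dsg2 (12.1) overlapped Pkp1, and Dsc2 (7.30) and Dsp (3.69) stood apart below them, followed by Cdh3 (0.420), Dsc3 (0.0784) and Dsg3 (0.00442). In HSL Cdh1 (380) was above Perp (136) and Jup (118), which overlapped. Dsc2 (18.7), Dsg2 (11.8), Dsp (6.76) and Pkp1 (5.34) each overlapped the next, and Cdh3 (0.681), Dsc3 (0.258) and Dsg3 (0.0172) were last. Cdh3 thus moved from rank 2 in basal cells to rank 8 in both luminal populations.

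**Figure D4:**
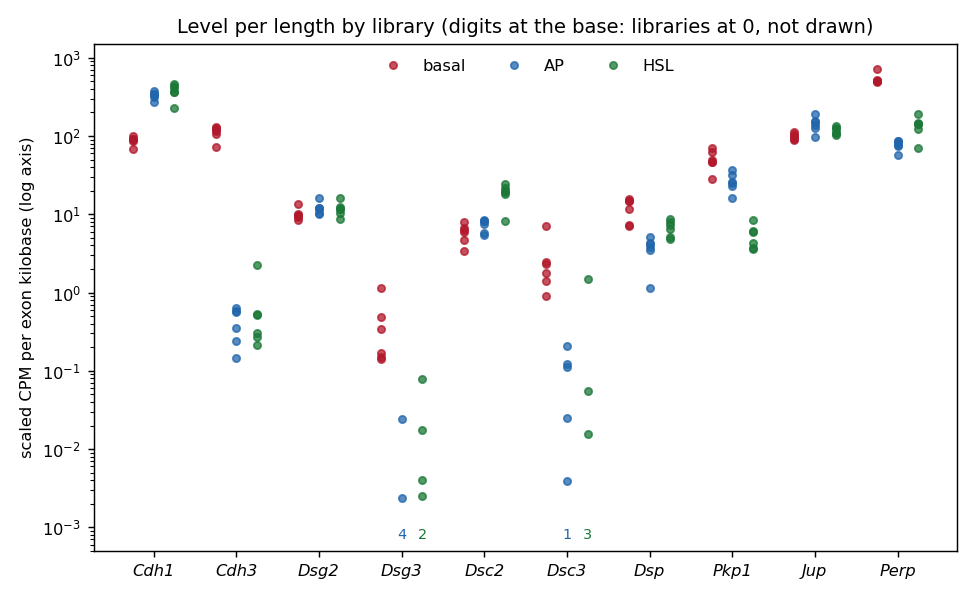
Level of each gene per exon kilobase (vertical axis, scaled CPM per kilobase, log scale) in the 18 libraries, in red for basal, blue for AP and green for HSL. Digits at the base give the number of libraries at 0, which a log axis cannot show. Perp leads in basal libraries and Cdh1 in luminal ones, and Cdh3, Dsc3 and Dsg3 lie in the lower part of the axis in luminal libraries, with Dsc3 of the HSL library of sample 4 above its other luminal points.

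The other desmosomal genes were mostly absent, and those present moved in both directions. Of 8 such genes only the plakophilins Pkp2, Pkp3 and Pkp4 passed the filter; relative to basal cells, AP and HSL each had 1 higher and 2 lower. Pkp2, a plakophilin of simple epithelia and heart, was at 2.26 to 5.34 CPM in basal libraries, 58.9 to 101 in AP and 45.8 to 73.5 in HSL, with no overlap between basal and luminal libraries. It was higher in AP by 4.43 ± 0.23 (adjusted p = 7.73e-11, edgeR) and in HSL by 3.98 ± 0.23 (adjusted p = 1.2e-10, edgeR), where Pkp1 was lower. Pkp3, found in most desmosomes, was at 281 to 375 CPM in basal libraries, 159 to 209 in AP and 119 to 155 in HSL. It was lower in AP than in basal cells (-0.84 ± 0.10, adjusted p = 1.68e-06, edgeR) and lower in HSL than in AP (-0.35 ± 0.10, adjusted p = 0.00831, edgeR). Pkp4, an armadillo protein also found at adherens junctions, was at a median of 85.0 (basal), 38.5 (AP) and 28.2 (HSL) CPM, and was lower in AP (-1.28 ± 0.27, adjusted p = 0.000719, edgeR) and in HSL (-1.79 ± 0.27, adjusted p = 1.87e-05, edgeR) than in basal cells.

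Of 17 other classical and related cadherins, 9 were tested, and in each luminal population 7 were lower than in basal cells and none was higher. Their median log2 fold changes were -2.95 and -2.62. In HSL against AP 1 was higher and 3 were lower, against 19.8% and 20.1% of all genes. Relative to basal cells, 21.5% of all genes were higher and 23.1% lower in AP, and 27.8% and 30.6% in HSL. Cdh2, Cdh4 and Cdh6 averaged between 0.140 and 0.232 CPM in AP and HSL, and passed the filter mainly through basal libraries. Such genes could hardly be called higher in luminal cells. The counts and medians against basal cells are therefore a description of the genes that passed. Cdh13, a cadherin without a transmembrane domain, had the highest level of this list, at 99.5 to 252 CPM in basal libraries, 3.32 to 60.9 in AP and 5.20 to 138 in HSL. It was higher in HSL than in AP (1.84 ± 0.59, adjusted p = 0.0182, edgeR). Cdh10, a cadherin known from the nervous system, was at 3.68 to 11.9 CPM in basal libraries and 0.460 to 1.07 in AP, and at most 0.0484 in HSL. Its log2 fold change was -3.38 ± 0.40 in AP against basal (adjusted p = 1.53e-06, edgeR). Cdh6 was at a mean of 10.6 CPM and the neural cadherin Cdh2 at 6.15 CPM in basal cells, and both were under 1 CPM in every luminal library. Cdh5, the endothelial cadherin, had mean levels of 9.72 (basal), 2.54 (AP) and 1.57 (HSL) CPM, and the sum of 5 endothelial markers other than Cdh5 was 36.9 to 120.0, 15.6 to 51.5 and 9.90 to 26.5 CPM. Cdh11, a mesenchymal cadherin, was at a mean of 14.0, 4.42 and 0.171 CPM, and the sum of 5 fibroblast markers was 575 to 912, 496 to 1259 and 32.1 to 89.5 CPM. Cdh19, known from Schwann cells, was at a mean of 1.35, 2.73 and 0.266 CPM, and the sum of 4 Schwann cell markers other than Cdh19 was 145 to 230.4, 201 to 517 and 6.89 to 44.7 CPM. The part of these cell types in Cdh5, Cdh11 and Cdh19 was not tested. Cdh15 was listed at 0 in all libraries, and its whole span is shared with another gene.

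Among 15 catenins and other adherens junction partners, all tested, AP had 3 higher and 7 lower relative to basal cells. HSL had 4 higher and 9 lower relative to basal cells, and 4 lower relative to AP. Against basal cells, the shares of all genes were 21.5% higher and 23.1% lower in AP, and 27.8% and 30.6% in HSL. Between HSL and AP they were 19.8% and 20.1%. The catenin genes Ctnnb1, Ctnna1 and Ctnnd1, named here outside the rule for named genes, differed less between populations than Cdh1 and Cdh3. Not all catenin genes did so: Ctnnd2 had means of 57.6 CPM in basal libraries, 25.4 in AP and 3.53 in HSL. Ctnnb1 (beta-catenin) had a mean of 928 CPM in basal libraries, 1127 in AP and 1146 in HSL, and was called only in HSL against basal (0.30 ± 0.13, adjusted p = 0.0456, edgeR). Ctnna1 (alpha-catenin) had means of 547, 471 and 597 CPM and was not called in any comparison (adjusted p = 0.262, 0.499 and 0.081 in edgeR). Ctnnd1 (p120-catenin), with 33.0, 35.3 and 31.9 CPM, shares 97.3% of its span with another gene, so its level is uncertain.

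The nectins are adhesion molecules that act beside cadherins, and Nectin4 and Nectin2 were higher while Nectin3 and Nectin1 were lower in luminal cells. Nectin4 was at 8.65 to 24.4 CPM in basal libraries, 157 to 348 in AP and 184 to 261 in HSL, and was higher by 4.34 ± 0.26 (adjusted p = 4.32e-10, edgeR) and 4.07 ± 0.26 (adjusted p = 4.59e-10, edgeR). Nectin3 was at 70.0 to 97.2 CPM in basal libraries, 2.65 to 13.5 in AP and 0.242 to 3.72 in HSL, and its log2 fold change in HSL against basal was -5.85 ± 0.53 (adjusted p = 3.87e-08, edgeR). Nectin2, named for completeness outside the rule, had means of 86.0 CPM in basal libraries, 181 in AP and 211 in HSL, and was higher by 1.08 ± 0.24 and 1.30 ± 0.24 (adjusted p = 0.00133 and 0.000169, edgeR). The log2 fold changes of Nectin1 were of the same sign in both luminal populations (-1.91 ± 0.29 and -2.67 ± 0.30). Afdn (afadin), which links nectins to actin, was higher in AP by 1.26 ± 0.10 (adjusted p = 7.45e-09, edgeR) and in HSL by 1.20 ± 0.10. Vcl (vinculin), an actin linker at junctions under tension and at focal adhesions, was at a mean of 550 CPM in basal libraries, 161 in AP and 179 in HSL, with log2 fold changes of -1.77 ± 0.17 and -1.62 ± 0.17. The other alpha-catenin gene Ctnna2 was at most 2.41 CPM. Between HSL and AP, the actin-bundling gene Lima1 (-1.14 ± 0.15, adjusted p = 1.36e-05, edgeR) and the delta-catenin gene Ctnnd2 (-2.83 ± 0.42, adjusted p = 3.5e-05, edgeR) were lower in HSL. Actn4, an actin crosslinker, had the highest level of the list, at a mean of 1976 CPM in basal libraries and 1174 in HSL.

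Of 12 plakins and keratins, the filament system to which desmosomes attach, each luminal population had 6 higher and 4 lower relative to basal cells. HSL had 5 higher and 2 lower relative to AP. The shares of all genes against basal cells were 21.5% higher and 23.1% lower in AP, and 27.8% and 30.6% in HSL. They were 19.8% and 20.1% in HSL against AP. Evpl (envoplakin) was at 0.706 to 3.74 CPM in basal libraries, 23.0 to 43.8 in AP and 40.3 to 111 in HSL, higher by 3.64 ± 0.33 and 4.86 ± 0.35 (adjusted p = 6.96e-08 and 2.21e-09, edgeR). Ppl (periplakin), its partner, was highest in AP, at a mean of 113 CPM against 21.7 in basal and 40.9 in HSL libraries, and was lower in HSL than in AP (-1.47 ± 0.25, adjusted p = 0.000134, edgeR). Desmoplakin and the envelope plakins therefore had opposite orders between basal and luminal cells. The basal keratins Krt5, Krt14 and Krt17 were lower in AP with log2 fold changes of -8.44, -8.43 and -7.98, and the simple-epithelial keratin Krt19, the highest of the list, rose from a mean of 626 CPM in basal libraries to 6219 in AP and 14232 in HSL.

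Of 15 genes for transcription and splicing factors known to act on epithelial junction genes, AP had 5 higher and 4 lower relative to basal cells. HSL had 5 higher and 6 lower relative to basal cells, and 1 higher and 4 lower relative to AP. Beside these counts, the calls over all genes made up 21.5% (up) and 23.1% (down) for AP against basal. For HSL they made up 27.8% and 30.6% against basal, and 19.8% and 20.1% against AP. The counts of this list were not tested against those shares. Trp63 was at 303 to 569 CPM in basal libraries, 1.32 to 4.67 in AP and 0.126 to 11.7 in HSL, with a log2 fold change in AP of -7.21 ± 0.83 (adjusted p = 1.2e-06, edgeR). Snai2 (Slug), a repressor of Cdh1, was at 45.6 to 80.5 CPM in basal libraries and at most 0.729 in luminal ones, with -7.07 ± 0.31 in AP (adjusted p = 9.85e-12, edgeR) and -7.61 ± 0.32 in HSL (adjusted p = 4.89e-12, edgeR). Grhl1, a grainyhead-like factor known to act on desmosomal cadherin genes, was at 4.67 to 12.6 CPM in basal libraries, 115 to 204 in AP and 110 to 208 in HSL, higher by 4.17 ± 0.25 and 4.27 ± 0.25. Esrp2, an epithelial splicing factor, rose in the order basal, AP and HSL, at means of 12.7, 78.9 and 174 CPM, and was higher in HSL than in AP by 1.14 ± 0.23 (adjusted p = 0.000587, edgeR). Ovol1 and Ovol2, repressors of mesenchymal genes, were lower in HSL than in AP (-1.13 ± 0.30 and -0.95 ± 0.23), as was Twist1, which was under 3 CPM in all libraries.

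The genes whose log2 CPM followed each of the 10 most closely over the 18 libraries, among genes with a mean of at least 10 CPM, are given as a description, since all 18 share the 3 populations and 6 samples. Cdh1 was followed by Tmem125 (Pearson r = 0.989) and Galnt3 (0.987), and Cdh3 by Asb2 (0.992) and Pltp (0.989). Dsc2 was followed by Memo1 (0.959) and Rhbdl2 (0.947), Dsp by the plakin gene Dst (0.948) and Kremen1 (0.935), and Pkp1 by P2rx7 (0.989) and Phactr2 (0.982). Memo1 averaged 41.3 (basal), 61.3 (AP) and 149 (HSL) CPM, the order of Dsc2, and P2rx7 averaged 111, 47.0 and 5.29 CPM, the order of Pkp1. Perp was followed by Dstn (0.985) and Pdlim7 (0.982), Jup by Stat6 (0.926) and Srxn1 (0.911), and Dsg2 by Hipk1 (0.907) and Zzef1 (0.887). For the 2 genes with few luminal counts, the closest were Hunk (0.930) and Ccnd2 (0.903) for Dsc3, and Gtf2f2 (0.921) and Stx11 (0.921) for Dsg3. Cdh1 and Cdh3 themselves had r = -0.98.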

How the data were processed

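RNA from 18 sorted mouse mammary libraries was analysed, made with Smart-Seq v4 and Nextera XT kits from 2 ng of RNA, per the labels' protocols; these kits do not record the strand. The authors deposited whole-number counts for 52636 genes per library, per the file headers. Per the submitters' processing notes the genome was GRCm38, and the software that produced the counts is not given in the sources used here. Gene widths, also deposited, equal the genomic span with introns for 44954 genes and were not used as lengths. Symbols, coordinates and merged exon lengths came from GENCODE M21, which 147 identifiers (at most 0.00677% of counts) did not match; promoters came from RefSeq (GRCm38.p6), which gave 2 of the 10 genes.

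Groups came from the titles. Counts were filtered with filterByExpr (minimum count 10), scaled by TMM and tested with edgeR 4.0.16 (R 4.3.3) in a quasi-likelihood model of all 18 libraries. Benjamini-Hochberg adjustment was over 16497 genes, with a threshold of 0.05. The fit was also run on simulated counts drawn independently for each library. That simulation held no effect shared by libraries of 1 sample, so it cannot show how such an effect would alter the fit. CPM values are scaled by the same factors. SE values are the fold change over the square root of F. The labels name 6 animals but do not state that a sample number is 1 animal, and sorting or library batches are not given. Libraries of the same number deviated together (r from 0.127 to 0.63 in 18 pairs), so the numbers were taken to pair the samples. The own number gave the highest r in 15 of the 18 pairs, and the exceptions were those of sample 6. The main model had no term for the sample number. Alternatives were library totals or DESeq2 1.42.0 size factors, no filter, DESeq2, limma-voom (limma 3.58.1), the sample number as a block, only the 2 populations compared, each sample left out, samples 1 to 3 or 4 to 6 alone, and, chosen after seeing the data, the block without sample 1.

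The 10 genes and the gene lists were chosen with earlier results of these data known. Named from each list were up to 4 called genes per comparison with the smallest adjusted p, the gene with the highest level, and genes at 0 throughout; and the 2 genes most correlated with each of the 10. One listed symbol, Eppk1, had no values here.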

Additional observations from a re-analysis of the deposited data

Results flagged for a closer look

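In 9 of the 30 combinations of gene and population, 1 library lay farther from the other 5 than Dixon's 95% limit for 6 values allows. In each of the 9 it was the highest library. That limit's rate of about 1 in 20 assumes normally distributed values. The values here are untransformed CPM, some near 0, so the 9 are listed only and cannot be set against that rate. Sample 1 accounted for 3 of these: Cdh3 in HSL (9.89 CPM, others 0.946 to 2.32), Dsg3 in basal cells (8.0 CPM, others 0.984 to 3.42) and Dsc3 in basal cells (38.3 CPM, others 4.94 to 13.3). Sample 3 was high for Dsg2 in basal cells (111 CPM, others 69.4 to 83.8) and in AP (133 CPM, others 84.4 to 100.2), and for Dsg3 in AP (0.168 CPM, or 8 counts). Sample 4 was high in HSL for Dsg3 (0.550 CPM) and Dsc3 (7.97 CPM, others at most 0.300). Sample 6 was high for Perp in basal cells (1400 CPM, others 949 to 1006). The libraries of 1 sample were taken to share an origin, so these were not counted as independent of each other.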

How the results depend on the processing

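Of the log2 fold changes of single genes under the alternatives, 432 kept direction and side of the threshold, 15 passed it newly, 20 no longer passed it and 11 changed sign; all that changed sign were in HSL against AP, and the cause was not tested. These were Cdh1 with library totals (-0.00414), Cdh3 in samples 4 to 6 (-0.26) and in the replicate block without sample 1 (-0.0445), Dsg3 in samples 1 to 3 (-1.86), and Dsc3 with limma-voom (-0.30), the replicate block (-0.33) and samples 1 to 3 (-1.03). Leaving out 1 sample at a time gave -0.0852 to 0.953 for Cdh3, -0.141 to 0.00621 for Dsg2, -0.36 to 4.44 for Dsg3 and -2.43 to 2.51 for Dsc3 in that comparison. Samples 1 to 3 alone, with fewer libraries, called 3721, 5682 and 1494 genes in AP against basal, HSL against basal and HSL against AP, and 1 of the 10 genes in the last. Library totals moved the median of all genes by over 0.1 in AP against basal (0.136) and HSL against AP (-0.185), and the share of calls that were higher from 48.2% to 57.6% and from 49.6% to 35.6%; Dsg2 was then called in AP against basal (0.39) and Jup in HSL against AP (-0.46). The replicate block called Dsg2 in both comparisons with basal cells and changed no other call of the 10 genes. Counts of other gene lists that moved by over 1.5 times were, for AP against basal, 4 (from 7) other classical cadherins in samples 1 to 3; for HSL against basal, 5 (from 3) other desmosomal genes without the filter; and, for HSL against AP, 0 to 4 (from 1) other desmosomal genes, 1 to 7 (from 4) junction partners, 0 to 4 (from 7) plakins and keratins and 0 to 8 (from 5) transcription factors. Dsg3 and Dsc3 are limited by depth in luminal libraries, where single libraries hold 0 to 44 counts apart from 362 of Dsc3 in HSL of sample 4.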
